A study of Mus musculus with 8 samples.

Results

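The step from the stem-cell-rich LSK fraction of mouse bone marrow to megakaryocyte and erythroid progenitors (MEP) was read with the Ezh2 gene intact, as a pair of arrays from WT marrow and a pair from JAK2V617F marrow. These are 4 of the 8 arrays of the series, chosen by their labels, and 12193 of the 20880 genes matched on the array were tested because their probe was well above background on at least 1 side of both pairs. The WT donors carried Cre-ERT2 and no mutant allele, and the JAK2V617F donors carried JAK2V617F and Cre-ERT2, so both groups share the inducible recombinase. All mice were of the C57BL/6 strain. Recipients of the total marrow were wild-type CD45.1+ mice after lethal irradiation, and cells were sorted from them 2 months later. The remaining arrays, from the Ezh2-deleted and the double mutant marrow in which Ezh2 was deleted 4 weeks after transplantation, entered the test only as further pairs that set its spread. Each group is 1 array of 20 ng of RNA, with no replicate. How the JAK2V617F allele is driven, how many recipients gave each sample and their age are not given in the sources used here.

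LSK cells lack the markers of mature lineages and carry c-Kit and Sca-1, and they hold the haematopoietic stem cells and multipotent progenitors. MEP have lost Sca-1 and the granulocyte and monocyte fate, and give rise to red cells and to megakaryocytes, the cells that shed platelets. The transcription factors Gata1 and Klf1 switch on the red cell programme, PU.1 (Spi1) and C/EBP factors the myeloid one, and erythropoietin acts on these cells through a receptor that signals by the kinase Jak2. JAK2V617F is the activated form of that kinase found in myeloproliferative neoplasms.

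A level below is log2 of the signal over the 75th percentile of its array, and a difference is the MEP level minus the LSK level. The main value of a gene is the mean of the WT and JAK2V617F differences, and a gene was called at a limma Benjamini-Hochberg adjusted p under 0.05. Each array has a dimmest signal that it still measured well above background. Where arrays of the dimmer cell type were not well above background, signals under that one were raised to it. Brighter ones were kept as measured. The fold is then written "at least", and is a lower bound only in so far as signals were raised. Such a p measures how closely pairs of arrays repeat each other, not the spread between animals. The arrays lie on 1 slide where the row is the cell type, so row and cell type cannot be told apart. Between 39.87% and 48.01% of the probes were well above background on these arrays, the highest in WT LSK and the lowest in WT MEP. Patches in which at least 3 of the 14 neighbouring spots were 4-fold brighter than on the other arrays of the cell type held 612 spots on the WT MEP array, 347 on JAK2V617F MEP, 72 on WT LSK and 27 on JAK2V617F LSK. Of the spots in a patch on WT MEP 198 were themselves that bright, of 382 such spots on the array. Genes read from such a patch are named as such.

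Of the 4 marker genes of the comparison Rhd and Car1 went with the labels. Flt3 and Ly6a passed the filter only through LSK, so their direction was fixed by it. Rhd, which encodes the Rh blood group antigen, was at -2.20 in WT LSK and 6.96 in WT MEP, and at -3.66 and 5.97 in the JAK2V617F cells. Car1, the red cell carbonic anhydrase, was at 0.19 and 8.04 in WT LSK and MEP and at -0.44 and 7.80 in the JAK2V617F pair. Both MEP arrays were far above both LSK arrays, by at least 605-fold for Rhd, which 1 of the 2 LSK arrays showed above background (adjusted p = 1.1e-09) and 264-fold for Car1 (difference 8.05, SE 0.34, adjusted p = 2.1e-09). Flt3, a receptor tyrosine kinase of multipotent and lymphoid progenitors, was at 5.19 and 3.88 in WT and JAK2V617F LSK and not well above background in either MEP array, at least 165-fold lower (adjusted p = 4.3e-09). Ly6a, the gene of Sca-1, by which the fractions were sorted, was at 3.73 and 3.91 in LSK and likewise below background in MEP, at least 100-fold lower (adjusted p = 2.1e-09).

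Promoters of genes from the gained and the lost side are shown first, since they hold the letters that the factors of the respective programmes are known to bind. Of the tested genes 9793 had a promoter in the RefSeq table of assembly GRCm38.p6, a window of 300 bases that spans the start of the gene. Both strands were searched for AGATAA, a form of the GATA site, for GAGGAAGT, a form of the PU.1 site, and for CCACACCC, a form of the Klf1 site, and no promoter of these 4 holds a Klf1 form. The capitals mark the match. Rhd (chr4:134864286-134864585, plus strand) and the erythropoietin receptor gene Epor (chr9:21963527-21963826, minus strand, match on the opposite strand and so printed as TTATCT) hold the GATA form. Mpo (chr11:87793534-87793833, plus strand) and Prtn3 (chr10:79879417-79879716, plus strand), which encode granule enzymes of neutrophil precursors, hold the PU.1 form. These were picked because they hold a match.
Rhd: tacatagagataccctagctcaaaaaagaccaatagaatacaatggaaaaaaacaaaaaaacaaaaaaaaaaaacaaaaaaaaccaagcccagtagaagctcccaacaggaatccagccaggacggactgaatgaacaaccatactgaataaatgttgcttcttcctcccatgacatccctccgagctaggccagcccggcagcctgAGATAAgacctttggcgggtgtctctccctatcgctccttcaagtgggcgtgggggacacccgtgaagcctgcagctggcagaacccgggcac
Epor: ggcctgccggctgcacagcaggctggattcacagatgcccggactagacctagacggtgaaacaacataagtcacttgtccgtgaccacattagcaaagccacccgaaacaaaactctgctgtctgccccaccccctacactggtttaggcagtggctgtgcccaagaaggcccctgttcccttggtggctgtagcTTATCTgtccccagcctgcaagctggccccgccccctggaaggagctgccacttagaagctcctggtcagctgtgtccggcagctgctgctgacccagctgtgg
Mpo: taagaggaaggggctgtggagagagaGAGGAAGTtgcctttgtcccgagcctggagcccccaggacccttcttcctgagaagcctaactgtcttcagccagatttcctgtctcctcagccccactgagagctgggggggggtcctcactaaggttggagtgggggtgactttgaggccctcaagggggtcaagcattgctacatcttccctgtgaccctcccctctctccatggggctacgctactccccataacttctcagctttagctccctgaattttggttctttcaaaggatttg
Prtn3: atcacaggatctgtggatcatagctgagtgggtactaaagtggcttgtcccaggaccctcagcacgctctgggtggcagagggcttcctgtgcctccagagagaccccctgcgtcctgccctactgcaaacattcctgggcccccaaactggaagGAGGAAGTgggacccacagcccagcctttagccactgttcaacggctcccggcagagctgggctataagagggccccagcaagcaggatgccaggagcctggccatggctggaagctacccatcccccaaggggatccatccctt

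AGATAA was in 6.94% of the 12422 promoters of tested genes and in 11.2% of all 32851 promoters in the table. Among genes called and at least 2-fold higher in MEP in both pairs it was in 11.1% (73 of 656 promoters), and among those lower in both in 7.21%. GAGGAAGT went the other way, in 1.98% (13 of 656) of the promoters of the higher genes and 5.75% (79 of 1373) of the lower ones, against 3.18% of promoters of tested genes. CCACACCC was in 4.42% and 4.59% of them, against 3.90%. A match is a description of letters and not a binding site.

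Of the 12193 genes, 1165 (9.55%) were higher in MEP and 1766 (14.5%) were lower, 2931 (24%) in all, and 4218 had an unadjusted p under 0.05. A call rests on the mean of the WT and JAK2V617F pairs, so genes whose pairs disagree in sign are seldom called. That the direction was shared in 2929 of the 2931 called genes follows largely from this rule and is no check of repetition. Of them 637 higher and 1306 lower genes were also at least 2-fold apart in both pairs. All 114 genes that were below background in both LSK arrays were called higher, and the filter admits such genes only if both MEP arrays show them. Of the 806 genes below background in both MEP arrays 572 were called lower, and the filter admits these only if both LSK arrays show them. The direction of both sets, with Flt3 and Ly6a among the lower ones, is therefore fixed by the filter, here and in the lists below. Over the 10658 genes above background on all 4 arrays the counts were nearly even, with 970 (9.1%) higher and 1015 (9.52%) lower. The median over all genes was 0.16 and moved to 0.03 under quantile normalization, so list medians below are to be read against 0.16. Counts of called list members are to be read against 9.55% higher and 14.5% lower among all tested genes. For members above background on all 4 arrays the shares are 9.1% and 9.52%. Without the WT LSK array or without the WT MEP array, the pair then resting on JAK2V617F alone, 570 genes were called higher.

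**Figure D1:**
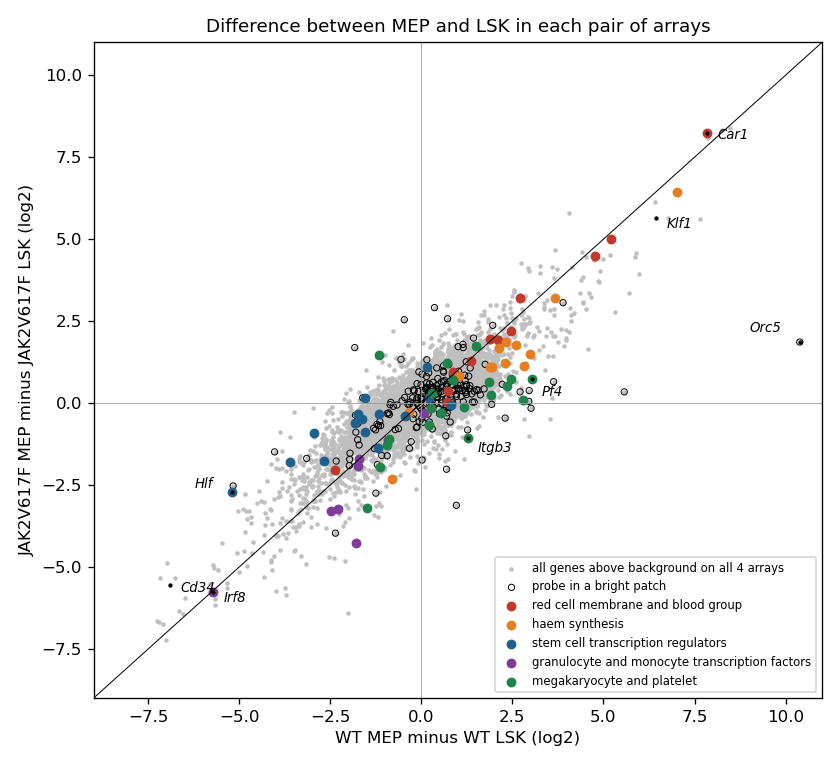
Each point is a gene above background on all 4 arrays (n = 10658), with the WT difference between MEP and LSK on the x axis and the JAK2V617F difference on the y axis, both log2; the line marks equal values, colours mark gene lists and open circles mark probes in a bright patch. Red cell membrane and haem genes lie at the upper right, myeloid and stem cell regulators at the lower left, and megakaryocyte genes mostly below the line, while Orc5 at the far right is read from a patch on the WT MEP array.

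Of 12 red cell membrane and blood group genes above background on all 4 arrays 9 were higher in MEP and 1 was lower, with a median of 1.99 in the WT pair and 1.93 in the JAK2V617F pair, against 0.25 and 0.14 over all such genes. Of the 26 genes of the list 21 passed the filter, some of them only through MEP, and 5 did not pass. Among the 9 Aqp1, the water channel, was at 3.31 and 3.39 in WT and JAK2V617F LSK and at 8.51 and 8.38 in MEP, 34.1-fold higher (adjusted p = 1.5e-07). Tspan33, a tetraspanin of erythroid progenitors, was 24.7-fold higher (adjusted p = 1.4e-07), and Car2 7.72-fold higher (adjusted p = 4.8e-06). Icam4, the Landsteiner-Wiener blood group protein, was 5.01-fold higher, and the urea transporter gene Slc14a1 4.04-fold.

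Several membrane genes were below background in LSK and bright in MEP. Add2, the beta-adducin of the membrane skeleton, was at 3.77 in WT MEP and 3.56 in JAK2V617F MEP, at least 162-fold higher than in LSK, where it was below background on both arrays. Cldn13, a claudin of mouse erythroid cells, was at 4.83 and 3.57 in MEP, at least 235-fold higher. Rhag, the partner of Rhd in the Rh complex, was at least 51.2-fold higher, and ankyrin (Ank1) at least 35.8-fold. Genes below background in both LSK arrays passed the filter only through MEP, so their direction is fixed by it. The 2 members that fell were the glucose transporter Slc2a1 and the Lutheran antigen gene Bcam. Slc2a1 was at 2.22 and 2.48 in LSK and -0.15 and 0.45 in MEP (4.61-fold lower, adjusted p = 6.2e-05). Bcam was below background in both MEP arrays and at least 1.26-fold lower, and its bound in the JAK2V617F pair alone was a difference of 0.00. Slc4a1, Sptb, Epb42, Dmtn and Tmod1, genes of the mature membrane, did not pass the filter, since 1 pair had no array that showed them. Sptb, Epb42 and Dmtn were above background on 1 MEP array only, and Slc4a1 and Tmod1 on 1 LSK and 1 MEP array.

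Haem synthesis was higher at nearly every step. Of 13 members that passed, 11 were higher and 1 was lower, with a median of 1.91, and all 13 were above background on all 4 arrays. Cpox, the coproporphyrinogen oxidase, rose from 1.83 to 5.51 in the WT pair and from 2.22 to 5.42 in the JAK2V617F pair (10.8-fold, adjusted p = 1.8e-06). Tspo2, a red cell homologue of the translocator protein, differed by 6.74 (SE 0.35, adjusted p = 5.6e-09), and the mitochondrial glycine carrier Slc25a38 was 4.56-fold higher (adjusted p = 0.00014). Alas1, the housekeeping first enzyme, was the one that fell, from 4.54 to 3.73 in WT and from 6.37 to 4.06 in JAK2V617F cells (2.96-fold, adjusted p = 0.00689; another probe of the gene gave a smaller difference, -0.53). The erythroid form Alas2 was below background on all 4 arrays.

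Of 12 iron handling genes 5 were higher and 0 lower, against 9.55% and 14.5% of all tested genes, with a median of 0.63. With signal on all 4 arrays 4 of 11 were higher, against 9.1% of all such genes. The transferrin receptor gene Tfrc was at 0.70 and 4.81 in WT LSK and MEP and at 2.08 and 4.58 in the JAK2V617F pair (9.91-fold, adjusted p = 1.1e-05). The endosomal ferrireductase Steap3 was 6.44-fold higher, the iron transporter Slc11a2 5.73-fold, Tfr2 2.95-fold, and the iron exporter ferroportin (Slc40a1) at least 56.6-fold, above background on 1 of the 2 LSK arrays. Another Slc11a2 probe above background on all 4 arrays gave a smaller difference, 1.31 where the probe used gave 2.52. The ferritin genes Fth1 and Ftl1 differed by 0.47 and 0.49 (adjusted p = 0.307 for both).

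Of 15 erythroid transcription factors 8 were higher and 0 lower, against 9.55% and 14.5% of all tested genes, with a median of 1.22. Klf1 went from -2.17 to 4.28 in the WT pair and from -1.51 to 4.13 in the JAK2V617F pair, 66-fold higher (adjusted p = 4.3e-07). Gata1 was at 3.45 and 4.12 in LSK and at 7.11 and 6.98 in MEP, 9.55-fold higher (adjusted p = 4.8e-05). Its partners and targets followed with smaller steps, the repressor Gfi1b by 8.25-fold, Klf3 by 4.45-fold, the cofactor Zfpm1 by 3.40-fold, Tal1 by 3.07-fold, Bcl11a by 2.33-fold and Ldb1 by 2.23-fold. Myb, Lmo2, Nfe2 and E2f2 differed by 0.32, -0.35, -0.45 and 0.03 and were not called (Nfe2 from a patch on JAK2V617F MEP). Epor, whose promoter is printed above, was at 0.81 and 1.22 in LSK and at 5.80 and 5.60 in MEP, 25.8-fold higher (adjusted p = 8.9e-07).

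Globin genes and genes of late maturation gave few calls. The alpha globin genes Hba-a1 and Hba-a2 were 23-fold and 16.5-fold higher in MEP (adjusted p = 2.8e-06 and 1.3e-05). Hbb-bs was 4.29-fold higher as measured, with only 1 LSK array above background, so this is no lower bound. Hbb-bt was 2.60-fold lower (adjusted p = 0.0399), with a difference of -0.14 in the WT pair and -2.61 in the JAK2V617F pair. Of the 5 globin genes that passed 3 were higher and 1 was lower. These genes are near-identical copies, so their probes may read each other's RNA and the values are uncertain. The embryonic globins Hbb-bh1, Hbb-bh2, Hbb-y and Hba-x were below background on all 4 arrays. Of 9 genes of late maturation that passed, 0 were higher and 1 was lower, the nuclear exporter Xpo7 (2.21-fold, adjusted p = 0.0153), near the 9.55% and 14.5% of all genes, and the median was 0.15.

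**Figure D2:**
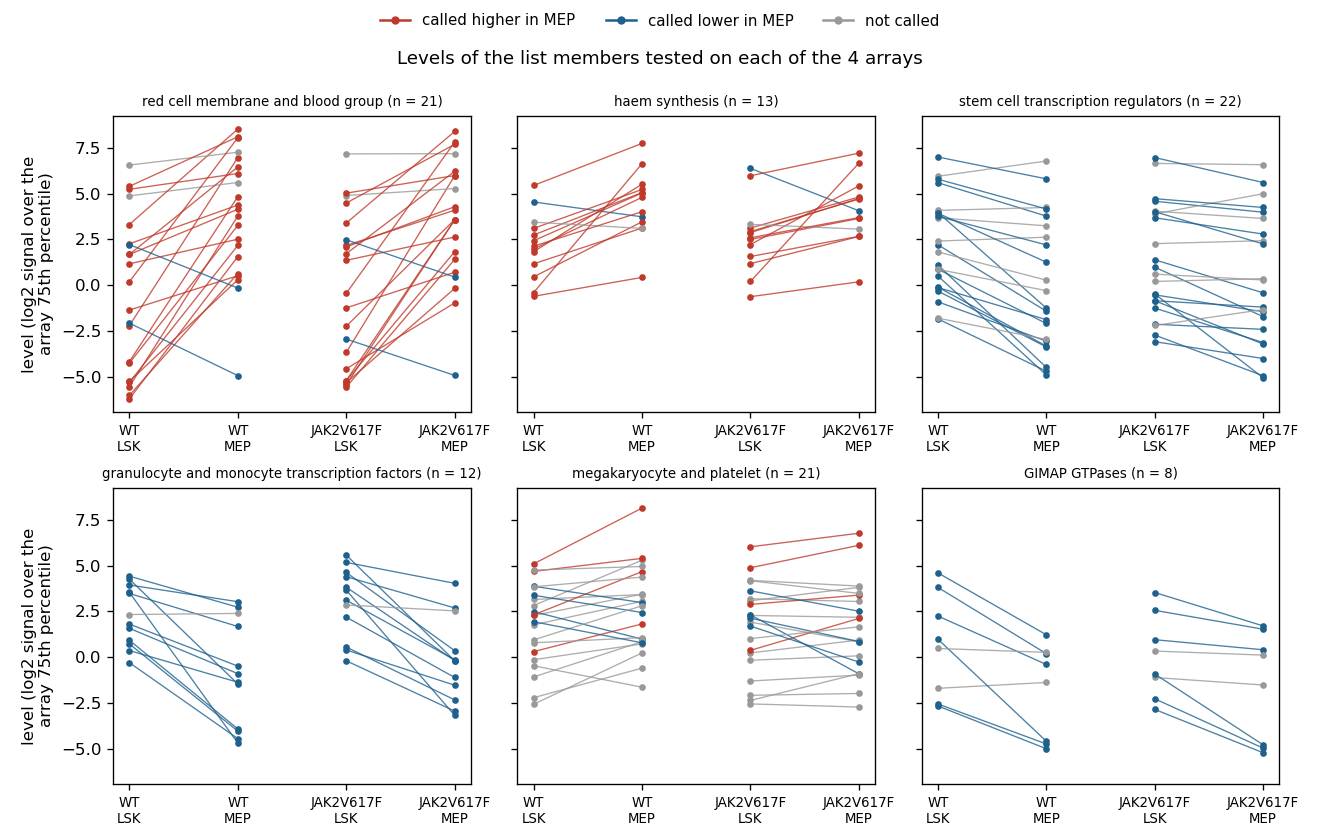
Points are the levels of the tested members of 6 lists on the 4 arrays (y axis, log2 signal over the 75th percentile of the array), and lines join LSK to MEP within WT and within JAK2V617F. Red marks genes called higher in MEP, blue genes called lower and grey genes not called; the red cell and haem lists slope up in both pairs, the stem cell and myeloid factor lists slope down, and the megakaryocyte list holds 4 higher and 4 lower members of 21.

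Among the largest gains above background on all 4 arrays, several lay outside these lists. Slc38a5, a glutamine transporter, was at -1.81 and 6.66 in WT LSK and MEP and at -2.30 and 6.09 in the JAK2V617F pair (344-fold, adjusted p = 6.8e-09). Sphk1, which makes sphingosine 1-phosphate, was 312-fold higher (adjusted p = 2.1e-09) and the sodium pump subunit Atp1b2 252-fold (adjusted p = 2.1e-09). These 3 genes were named for the size of their smaller pair difference, so the gap between their arrays follows from the choice. Smim1, which carries the Vel blood group, was 98.6-fold higher, the protease hepsin (Hpn) 77.3-fold, the metallothionein Mt2 73.7-fold, the carboxylesterase Ces2g 37.6-fold and the biliverdin reductase Blvrb 29-fold. Below background in LSK were the collagen gene Col5a1 (at least 191-fold higher), the sterol exporter Abcg4 (at least 119-fold), the mitochondrial carrier Slc25a21 (at least 112-fold), Spon2 (at least 71.7-fold) and Ccdc68 (at least 51.8-fold).

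In growth and metabolism the calls lay in a few genes. They are read against 9.1% higher and 9.52% lower among all genes above background on all 4 arrays. The higher counts for DNA replication and cholesterol synthesis did not exceed that share. Of 20 ribosome biogenesis genes 3 were higher and 0 lower, namely Rrp9 (2.51-fold), Nop2 (2.02-fold) and Nop58 (1.88-fold), while 19 had a difference above 0 and the median was 0.74. Of 23 DNA replication genes 2 were higher, cyclin E1 (Ccne1, 5.77-fold, adjusted p = 0.00101) and the licensing factor Cdc6 (1.91-fold), and the median was 0.22. Of 19 mitosis genes 0 were called with limma and 0 had an unadjusted p under 0.05, with a median of 0.12. In serine and one-carbon metabolism 3 of 14 were higher, asparagine synthetase (Asns, 7.91-fold, adjusted p = 0.00015), Mthfd1 (4.51-fold) and the folate carrier Slc19a1 (2.05-fold), and Shmt1 was 2.01-fold lower. Another Shmt1 probe above background on all 4 arrays gave a smaller difference, -0.31 where the probe used gave -1.01. Of 17 cholesterol synthesis genes 1 was higher, Lss (2.06-fold). Cyclin D1 (Ccnd1) was 4.11-fold lower in MEP, the CDK inhibitors Cdkn1c and Cdkn1a 4.55-fold and 2.05-fold lower (Cdkn1a from a patch on WT MEP), and Rb1 2.32-fold higher.

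On the lost side, of 8 transcription factors of granulocytes and monocytes above background on all 4 arrays 7 fell and 0 rose (9.52% of all such genes fell), with a median of -1.77 in the WT pair and -2.58 in the JAK2V617F pair, against 0.25 and 0.14 over all such genes. A further 4 passed without signal on all 4 arrays and were lower. Irf8, the monocyte and dendritic cell factor, was at 4.26 and 5.57 in WT and JAK2V617F LSK and at -1.45 and -0.19 in MEP, 53.2-fold lower (adjusted p = 7.4e-09). Gfi1, the repressor of the granulocyte branch, was at 3.54 and 3.66 in LSK and below background in MEP, at least 86.5-fold lower. Irf8 and Gfi1 were named for the size of their loss, so the gap between their arrays follows from the choice. Gfi1 also passed the filter only through LSK. Cebpa was 7.37-fold lower, Cebpd 8.16-fold, Cebpe at least 14.3-fold and PU.1 (Spi1) at least 6.04-fold, below background in both MEP arrays. Zeb2 differed by -0.13 and was not called.

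Granule genes went both ways, 5 higher and 5 lower of the 12 that passed, and are given here by their direction. Mpo, an enzyme of early neutrophil granules, was at 9.12 and 10.69 in LSK and at 2.36 and 5.34 in MEP (66.6-fold lower, adjusted p = 2.2e-07), Ctsg 123-fold, Prtn3 56.9-fold, Ms4a3 25.8-fold and Elane 11-fold lower. S100a9, a protein of mature neutrophils, was at 1.48 and 3.16 in WT LSK and MEP and at 5.06 and 6.23 in the JAK2V617F pair (2.68-fold higher, adjusted p = 0.00408), Camp and S100a8 were 2.59-fold and 2.22-fold higher, and Ltf and Ngp at least 4.57-fold and 3.98-fold. Each of these 5 genes was higher in JAK2V617F LSK than in WT MEP.

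In bulk RNA, fewer cells of a type and less RNA per cell cannot be told apart, here and for every list. The summed level of the granule list was 9.69 and 11.61 in the WT and JAK2V617F arrays of LSK and 4.75 and 7.54 in those of MEP. That of 16 monocyte and macrophage markers was 4.93 and 6.08 in LSK and 2.27 and 3.59 in MEP, and that of 11 mast cell and basophil markers was 4.08 and 5.89 in LSK and 1.97 and 2.83 in MEP. Of 9 B cell markers 7 were below background on all 4 arrays, among them Pax5 and Ebf1, and of 13 T and NK cell markers 5, among them Cd3d and Cd3g. Of 11 stromal markers 5 were below background on all 4 arrays, and of the 4 that passed Col1a2 was 5.39-fold higher in MEP (adjusted p = 7.8e-05) and Sparc and Pdgfrb were 6.71-fold and 5.56-fold lower. The part of such cells in any result was not tested.

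Of 15 stem cell regulators above background on all 4 arrays 9 fell and 0 rose, against 9.52% and 9.1% of all such genes. The median of these regulators was -1.55 in the WT pair and -0.48 in the JAK2V617F pair. A further 7 of the list passed without signal on all 4 arrays. Hlf, a factor of stem cells, was at 3.97 and 0.99 in WT and JAK2V617F LSK and at -1.24 and -1.71 in MEP, 15.5-fold lower (adjusted p = 1.4e-05). Erg was 6.54-fold lower (adjusted p = 8.8e-05), Hoxa7 4.64-fold, Zfp521 3.84-fold, Meis1 2.32-fold and Hoxa9 2.07-fold. Hmga2, Nkx2-3, Hoxa5, Prdm16 and Mecom were below background in both MEP arrays, with bounds of at least 7.21-fold, 7.82-fold, 4.15-fold, 2.37-fold and 1.47-fold. Gata2, Runx1 and Bmi1 differed by 0.63, -0.42 and 0.19 and were not called.

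Of 11 genes of stem cell surface proteins above background on all 4 arrays 8 fell and 0 rose, against 9.52% and 9.1% of all such genes. The median of these surface genes was -2.11 in the WT pair and -1.37 in the JAK2V617F pair. Cd34 was at 8.12 and 7.83 in LSK and at 1.23 and 2.26 in MEP, 74.9-fold lower (adjusted p = 1.3e-08). Cd93 and Cd27 were each 18.2-fold lower, and the endothelial protein C receptor Procr and the guidance receptor Robo4 at least 23.3-fold and 22.1-fold. Kit, by which both fractions are sorted, was at 4.71 and 3.76 in LSK and at 4.04 and 4.29 in MEP and was not called (adjusted p = 0.897). Of 9 genes of lymphoid priming on all 4 arrays 6 were lower, against the same 9.52%, and 1, Tcf3, was 2.00-fold higher. Dntt, the terminal transferase of lymphoid precursors, was at 7.32 and 5.43 in LSK and at -1.22 and -2.86 in MEP. It was 342-fold lower as measured, which is no lower bound (1 of the 2 MEP arrays was above background). Cd52 was 40.8-fold and the chromatin organizer Satb1 at least 54.9-fold lower.

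Of 15 cytokine receptors above background on all 4 arrays 8 were lower and 3 higher, against 9.52% and 9.1% of all such genes. The higher receptors were Epor, the IL-33 receptor Il1rl1 (13-fold, adjusted p = 3.0e-05) and Ifngr1 (2.31-fold). The common beta chain Csf2rb was at 3.21 and 4.27 in LSK and at -0.73 and 0.21 in MEP, 16-fold lower (adjusted p = 3.0e-07), and Il6ra was 11.9-fold, Il3ra 4.71-fold and Csf1r 4.35-fold lower. Other probes above background on all 4 arrays gave smaller differences, of -2.54 for Csf2rb and of -0.55 for Csf1r. The G-CSF receptor Csf3r differed by -0.02 (adjusted p = 0.972). Of 10 JAK kinases and STAT factors 3 were lower, Stat4 (5.80-fold), Jak3 (5.30-fold) and Stat3 (2.71-fold, from a patch on WT MEP), and Jak2 was at 2.72 and 2.34 in LSK and at 3.24 and 3.37 in MEP (adjusted p = 0.0874).

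STAT5 target genes, which respond to Jak2 signalling, went both ways with the cell type, 7 lower and 2 higher of 16. Among all genes above background on all 4 arrays 9.52% were lower and 9.1% higher. Socs3 was 6.10-fold lower and Id1 5.26-fold lower, while Gadd45a was 4.34-fold and Cish 2.16-fold higher. Socs2 was at -0.89 and -1.95 in WT LSK and MEP and at 2.18 and 1.40 in the JAK2V617F cells, 1.89-fold lower with the cell type (adjusted p = 0.0401). Both JAK2V617F arrays were above both WT arrays for that gene. Its difference between the pairs was 0.27.

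Genes of inflammation and antigen presentation are read against 9.1% higher and 9.52% lower among all genes above background on all 4 arrays. Of 15 such chemokine, cytokine and NF-kB genes 6 were lower and 2 higher. The chemokine gene Ccl9 was at 5.44 and 6.38 in LSK and at -1.66 and -0.36 in MEP, 121-fold lower (adjusted p = 3.0e-09), Ccl4 was 76.2-fold lower and Ccl3 at least 140-fold, and the inhibitors Nfkbia and Tnfaip3 were 2.48-fold and 2.14-fold higher. Of 6 MHC class II genes 5 were lower, by 2.27-fold (Cd74) to 3.55-fold (H2-Aa), whereas of 10 class I genes 1 was lower, the immunoproteasome subunit Psmb8 (2.51-fold). Of 17 interferon-stimulated genes 4 were lower, among them Ifi27l2a (12.8-fold) and Ifitm1 (8.57-fold), and Isg15 was 2.25-fold higher. Of 16 immediate early genes 6 were lower and 0 higher, Fosl2 (5.05-fold) and Ier3 (4.60-fold) the most, and of 5 GIMAP GTPases of lymphoid cells 3 were lower. Of 16 adhesion genes 5 were lower and 2 higher, the integrins Itga5 (2.18-fold) and Itgb1 (1.91-fold).

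Further large losses by the naming rule were Emb (139-fold lower), Ly6c1 (90.3-fold), Plppr3 (91-fold), Sting1 (74.4-fold), the adaptor Tyrobp (60.4-fold) and transferrin (Trf, 50.6-fold). Emb, or embigin, was at 5.64 and 6.35 in LSK and at -1.37 and -0.87 in MEP (adjusted p = 2.9e-09). For Plppr3 another probe above background on all 4 arrays gave a difference of 0.71 where the probe used gave -6.51, so its value depends on the probe. Below background in both MEP arrays were Wfdc17 (at least 89.2-fold), Fbp1 (at least 72.1-fold), Serpinf1 (at least 55.1-fold) and Bex6 (at least 54.6-fold). Of 11 subunits of the polycomb complex PRC2, which methylates histone H3, 0 were called with limma and 1, Phf19, had an unadjusted p under 0.05, and Ezh2, its catalytic subunit, was at 3.50 and 3.83 in LSK and at 4.14 and 4.23 in MEP (adjusted p = 0.267). Of 13 p53 targets 4 were higher, Zmat3 (4.04-fold), Bbc3 (2.56-fold), Phlda3 (2.17-fold) and Ccng1 (2.16-fold), and 3 lower. Among all tested genes 9.55% were higher and 14.5% lower.

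Megakaryocyte and platelet genes went both ways. Of 21 that passed, 4 were higher and 4 lower, against 9.55% and 14.5% of all tested genes, with a median of 0.53. The higher ones were platelet factor 4 (Pf4, 3.70-fold, adjusted p = 0.0279), the glycoprotein Gp5 (3.10-fold), Treml1 (2.70-fold, adjusted p = 0.0496) and the thrombin receptor F2r (1.95-fold). Among the lower ones were P-selectin (Selp, 5.11-fold), P2rx1 (2.94-fold) and the factor Fli1 (2.00-fold). The late platelet genes Tubb1, Gp6, P2ry12 and F2rl2 were below background on all 4 arrays.

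**Figure D3:**
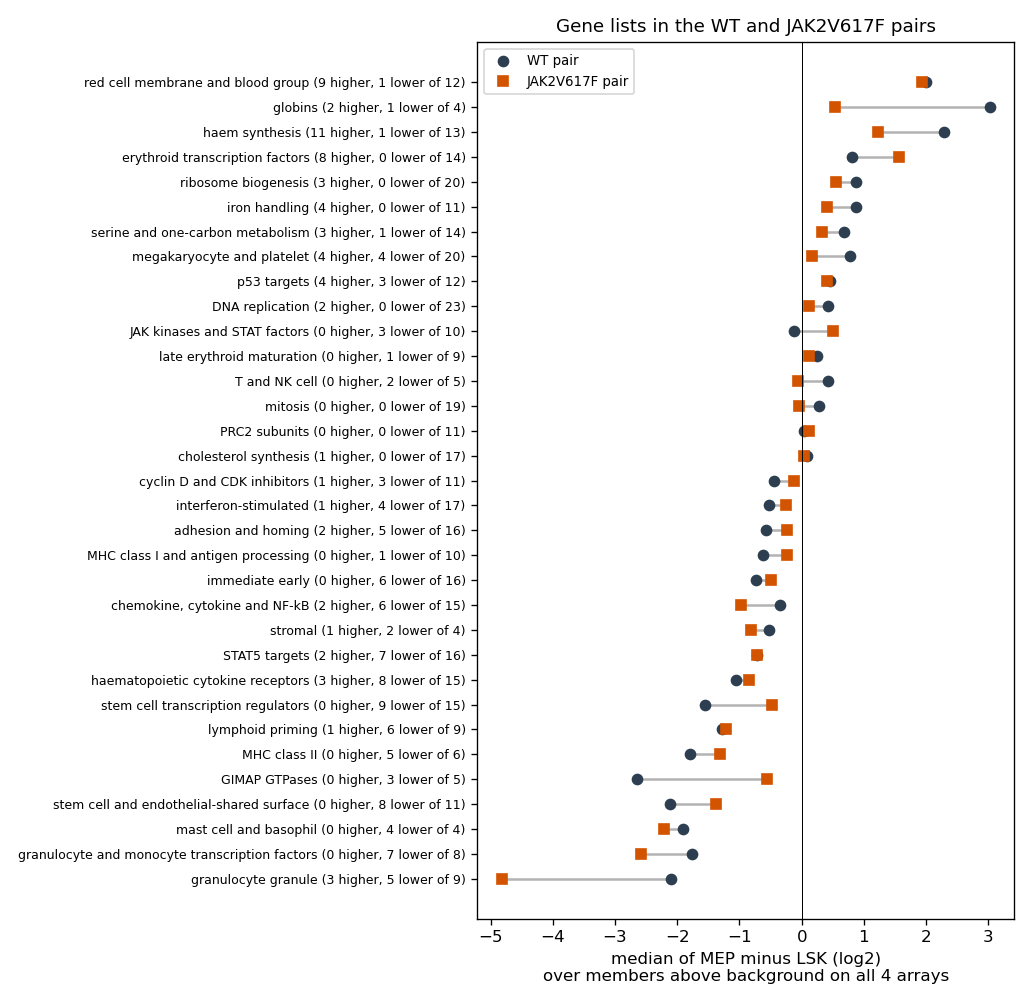
For each gene list with at least 4 members above background on all 4 arrays, the circle is the median difference between MEP and LSK in the WT pair and the square that in the JAK2V617F pair (x axis, log2), over those members, with the called ones counted on the y axis. Red cell membrane genes are at 1.99 and 1.93, globins at 3.02 and 0.54, stem cell regulators at -1.55 and -0.48, and megakaryocyte genes at 0.78 and 0.17.

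The last question was where the JAK2V617F pair differed from the WT pair. Across the 12193 genes the differences between MEP and LSK in the pairs had a Pearson correlation of 0.84 (Spearman 0.675), a description over genes, which are not independent. The spread was wider in WT, with an SD of 1.47 against 1.27, and 1763 genes were at least 2-fold higher and 2010 lower in the WT pair, against 968 and 1553 in the JAK2V617F pair. The share of probes above background also fell further in the WT pair, from 48.01% in LSK to 39.87% in MEP, than in the JAK2V617F pair, from 43.33% to 41.08%, and its part was not tested. With 1 array in each group the difference between the pairs has no replicate check and no test of its own. Over the 10658 genes above background on all 4 arrays, the JAK2V617F difference was at least 2-fold above the WT one in 529 genes (4.96%) and below it in 740 (6.94%), a split that quantile normalization turned to 672 and 403. A test of the interaction between cell type and JAK2V617F, which draws also on the pairs with Ezh2 deleted, called 0 of 12193 genes with limma. It left 1500 genes at an unadjusted p under 0.05, 961 of them negative, and the lowest adjusted p was 0.0668. Without the WT LSK or the JAK2V617F LSK array that test called 63 genes, and other settings called 0 to 11.

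Megakaryocyte genes differed between the pairs, mostly on the MEP side. The JAK2V617F pair was at least 2-fold below the WT pair in 9 of its 20 members above background on all 4 arrays (45%, against 6.94% of all such genes), and its median was -0.87. Pf4 was at 5.09 and 8.13 in WT LSK and MEP and at 6.02 and 6.76 in the JAK2V617F pair. The integrin beta-3 gene Itgb3 was at 1.77 and 3.05 in WT and at 1.92 and 0.84 in JAK2V617F cells. Von Willebrand factor (Vwf) was at 2.82 and 5.29 in WT and at 3.08 and 3.81 in JAK2V617F cells. For these genes the JAK2V617F MEP array stood lower than WT MEP while the LSK arrays were closer together, and over the list the JAK2V617F level minus the WT level had a median of 0.07 in LSK and -1.20 in MEP. The differences between the pairs were -2.31, -2.35 and -1.75, and for the platelet chemokine Ppbp, Treml1, Selp, Gp1bb, Itga2b and Rab27b they were -2.71, -1.85, -1.71, -1.68, -1.27 and -1.21. Thbs1 was the one member at least 2-fold above (2.64). The median stayed below 0 under quantile normalization (-0.65) and normexp (-0.72).

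The arrays with Ezh2 deleted give the same difference in samples that the rule did not use, the double mutant pair minus the Ezh2-deleted pair. There 18 of the 20 megakaryocyte members were at least 2-fold below (90%, against 6.08% of all genes above background on the 4 Ezh2-intact arrays), with a median of -2.03 against -0.28 over all. Ppbp differed by -5.32, Itgb3 by -4.06, Vwf by -3.69 and Pf4 by -2.92 there. The pattern in the Ezh2-intact pairs was known when it was looked at here, so this is a description. In the interaction test over all 8 arrays Itgb3 and Pf4 had an adjusted p of 0.152 each.

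Haem genes had lower differences between MEP and LSK in the JAK2V617F pair. The difference between the pairs was below 0 in 12 of 13 members, and its median was -0.78. Over all genes above background on all 4 arrays the median was -0.07. Of the members 4 were at least 2-fold below (30.8%, against 6.94% of all such genes), among them Uros (-1.67), Alas1 (-1.50, but -0.33 by another probe) and Urod (-1.06). Uros, the uroporphyrinogen synthase, was at 1.98 and 4.79 in the WT pair and at 2.50 and 3.64 in the JAK2V617F pair, so that LSK was higher and MEP lower with JAK2V617F. With Ezh2 deleted the same 12 members were below 0, where 70.3% of all genes were, with a median of -0.54 against -0.28. Below 0 both with Ezh2 intact and with Ezh2 deleted were 43.4% of all genes. Globins differed further, with 4 of 4 at least 2-fold below, against 6.94% of all genes, and a median of -2.45. They are near-identical copies, so these 4 are not separate readings. Hba-a2 was at 1.08 and 6.39 in WT and at 0.84 and 3.63 in JAK2V617F cells. With Ezh2 deleted the globin median had the opposite sign, 1.08. Erythroid transcription factors had a median of 0.40 and red cell membrane genes of -0.13.

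Stem cell regulators had differences closer to 0 in the JAK2V617F pair, in which 7 of 15 members above background on all 4 arrays were at least 2-fold above WT (46.7%, against 4.96%) and the median was 0.94. Hlf was lower in JAK2V617F than in WT LSK (0.99 against 3.97) and close in MEP (-1.71 against -1.24), which gave 2.51. Erg (1.82), Zfp521 (2.04), Mycn (1.70), Hoxa9 (1.40), Meis1 (1.22) and Msi2 (1.14) had the same sign, each lower in JAK2V617F than in WT LSK. Over the list the JAK2V617F level minus the WT level had a median of -0.26 in LSK and 0.40 in MEP. It was larger in size in LSK for 7 of the 15 members. With Ezh2 deleted the median was -0.33, near the -0.28 of all genes, and Hlf alone of these members was at least 2-fold above there (1.00). Of 5 GIMAP genes above background on all 4 arrays 3 were past 2-fold, Gimap1, Gimap5 and Gimap6 at 2.58, 2.09 and 1.55 (with Ezh2 deleted -0.69, -0.14 and -0.12), and Gimap4 and Gimap9 were at -0.73 and -0.01. By the probes used, all 10 JAK kinases and STAT factors had a difference above 0, with a median of 0.61 against -0.07 over all genes. For Stat6 other probes above background on all 4 arrays gave -0.74 and 0.54 where the probe used gave 0.64. Stat4 was the one past 2-fold (1.65). With Ezh2 deleted 4 of the 10 were above 0 and the median was -0.16.

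**Figure D4:**
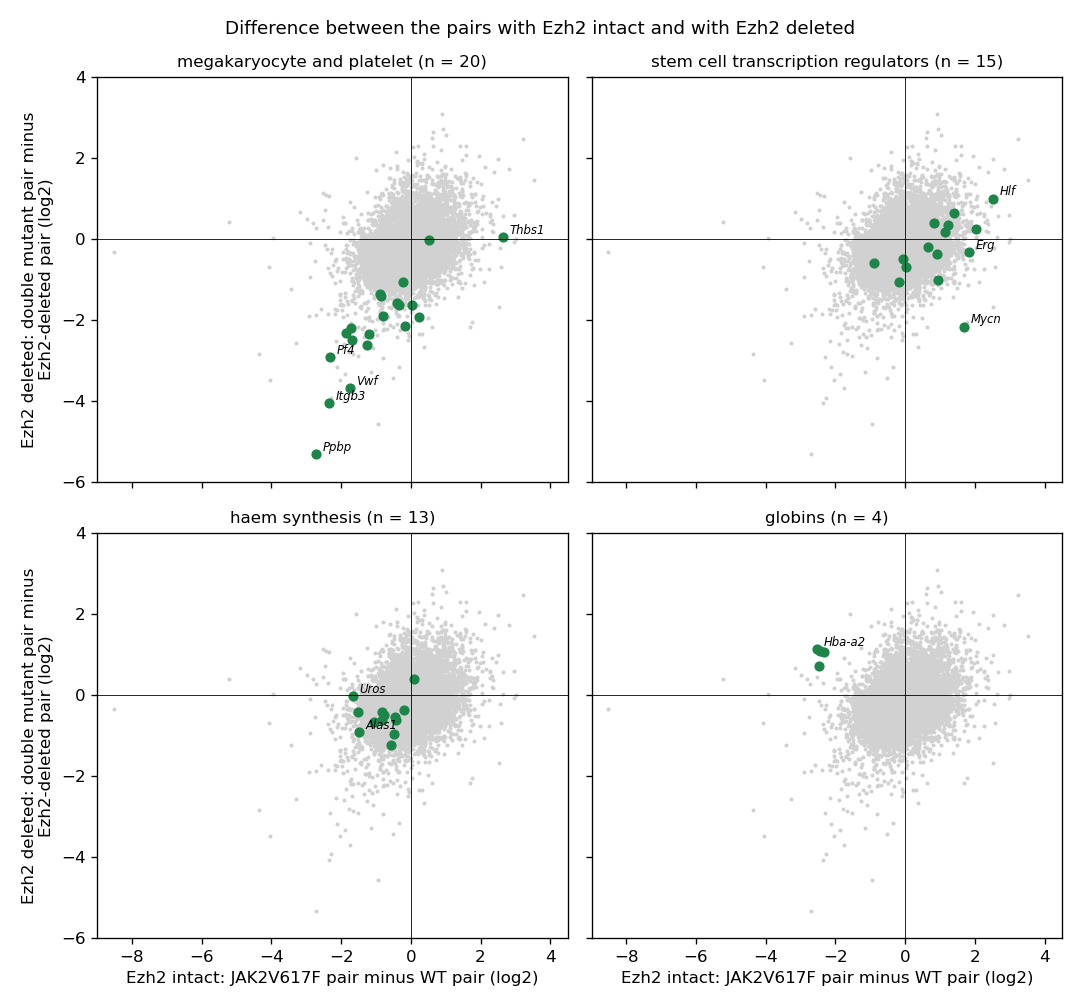
Each grey point is a gene above background on the 4 arrays with Ezh2 intact; the x axis is the JAK2V617F pair minus the WT pair and the y axis the double mutant pair minus the Ezh2-deleted pair (log2), and green points are the members of the list named above each panel. Megakaryocyte genes lie at the lower left (medians -0.87 and -2.03), haem genes left of and below 0, stem cell regulators mostly right of 0 with a median of -0.33 on the y axis, and globins at the upper left.

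Single genes by the naming rule were read with their patches in view, since 11 of the 24 lay in one. Outside patches, the secretory leukocyte protease inhibitor Slpi was at 4.31 and 2.28 in WT LSK and MEP and at 6.75 and 0.35 in the JAK2V617F pair, a difference between the pairs of -4.37 (-2.83 with Ezh2 deleted). The metallothionein Mt1 was at 4.55 and 9.13 in WT and at 7.53 and 9.19 in JAK2V617F cells, so its MEP levels were close and its LSK levels apart (-2.91, and -1.90 with Ezh2 deleted). Prl2c1 (-4.04), Arhgdig (-3.95), Folr1 (-3.43) and Serpine2 (-3.29) were also below WT, with -3.48, 0.02, -1.24 and -2.57 where Ezh2 was deleted. Above WT were Gas6, the ligand of the TAM receptors (3.23, and 2.48 with Ezh2 deleted), Hnf4a (2.97 and 0.60), Ro60 (2.97 and -0.07) and the BAFF receptor gene Tnfrsf13c (2.83 and 1.74). Gas6 was at 0.89 in WT LSK and between -2.83 and -2.56 on the other 3 arrays with Ezh2 intact.

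Read from a patch on the WT MEP array were Orc5 (-8.53), Mafg (-5.23), Usp54 (-3.17), Rbm44 (-2.98) and Gm4850 (-2.90), and on both MEP arrays Gpr84 (-4.08). Read from a patch on JAK2V617F MEP were S1pr1 (3.52), Dync2h1 (3.01), Ebi3 (2.65), Prpf4b (2.56) and Camk2d (2.53). For Mafg the other probes of the gene gave 0.01 and -0.02, for Camk2d 0.03 and -0.41 and for Prpf4b 0.23. The Orc5 level was 9.47 in WT MEP and at most 0.87 on the other 3 arrays, and Orc5 also passed the test of MEP against LSK (adjusted p = 0.00117). Of all genes past 2-fold between the pairs, 13 of 529 above and 31 of 740 below lay in a patch.

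Over all genes, the difference between the pairs was set beside that with Ezh2 deleted, where the median of all genes was -0.28. Of the 740 genes below, 646 (87.3%) had the same sign there, against 70.3% of all genes, and 127 (17.2%) were again 2-fold, against 6.08%. Of the 529 above, 330 (62.4%) had the same sign, against 29.7%, and 71 (13.4%) were 2-fold, against 2.93%. The correlation across genes was 0.35, a description, since probes and their brightness are shared. The larger part of the difference lay between the LSK arrays in 552 of the 740 genes below and 342 of the 529 above, against 6774 of all 10658 genes.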

How the data were processed

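Gene expression was measured on 8 one-colour Agilent mouse arrays, 1 for each group. Per the file headers, Feature Extraction subtracted the background and detrended each array, and the deposited intensity is its processed signal, not normalized between arrays. The authors' series table holds a linear ratio that follows that signal within each array, and its scale and centring were found from the values. Spots of a probe were averaged without those flagged non-uniform, and log2 values were set relative to the 75th percentile of their array. Of 55681 probes 27509 (49.4%) matched 1 gene through RefSeq accessions (GRCm38.p6), and the brightest probe on average stood for its gene. limma 3.58.1 in R 4.3.3 was fitted to all 8 arrays with cell type and JAK2 genotype nested in Ezh2 genotype (2 residual degrees of freedom), and the mean of the WT and JAK2V617F pairs was tested. The interaction was fitted nested in the cell type. The number of arrays limits the precision. A spot lay in a patch if at least 3 of its 14 neighbours were at least 4-fold brighter than on the other arrays of the cell type, a rule chosen after the data were seen. The scripts were tested on simulated data. Named were up to 12 genes each way above background on all 4 arrays and up to 8 each way below background in a cell type, ranked by the smaller fold among the pairs, up to 12 each way for the difference between the pairs, and the 4 markers; some genes the rule picks are not reported here, and list members shown were picked from their values. The comparison, the gene lists and the naming rule were chosen with earlier results of these data known.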

Additional observations from a re-analysis of the deposited data

Results flagged for a closer look

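In 7 genes above background on all 4 arrays the WT pair and the JAK2V617F pair moved in opposite directions, each by at least 2-fold. With 1 array in each group these differences were not tested by themselves.

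In 3 genes the difference between MEP and LSK was positive in the WT pair and negative in the JAK2V617F pair. Slc22a4, a carnitine family transporter, was at -2.35 and -1.16 in WT LSK and MEP and at 0.06 and -1.65 in the JAK2V617F pair, a difference between the pairs of -2.89 (-0.94 with Ezh2 deleted). Itgb3, the platelet integrin subunit, had a difference between the pairs of -2.35 (-4.06 with Ezh2 deleted). Ackr1, the Duffy antigen receptor, was at -2.98 and -1.87 in WT and at -0.67 and -1.71 in JAK2V617F cells, a difference of -2.15 (-2.53 with Ezh2 deleted).

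In the other 4 genes the signs were turned. The differences between the pairs were 2.34 for Eid2, 2.45 for the kinase gene Camk1d, 2.64 for thrombospondin 1 (Thbs1) and 3.52 for the sphingosine 1-phosphate receptor S1pr1, against 0.47, 0.82, 0.04 and 1.46 with Ezh2 deleted. The S1pr1 probe lies in a bright patch on the JAK2V617F MEP array, and the part of the patch in its value was not tested.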

How the results depend on the processing

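Genes called higher in MEP numbered 1165, and 570 to 1009 when each of the 4 arrays was left out in turn, 2756 in an additive fit over 8 arrays, 635 at an adjusted p under 0.01 and 637 when also 2-fold apart in both pairs. Genes called lower numbered 1766, and 1198 to 1609 with an array left out. When the filter asked for signal on all 4 arrays 1157 were lower and 1270 higher. The interaction called 0 genes, but 9 with normexp, 11 with that stricter filter, 7 with an intensity trend, 3 at an adjusted p under 0.10 and 0 to 63 with an array left out. The JAK2V617F pair was above WT by 2-fold in 529 genes and below in 740: with normexp in 350 and 457, at a difference of at least 0.58 in 1637 and 2155, and at 2 in 37 and 54. Below WT it was 403 under quantile normalization, and above WT 905 with the wider filter. The cause of these shifts was not tested. All 41 named genes that were called kept their call under normexp, quantile normalization, the series table, the mean of the probes and a fit on the 4 arrays alone. Of 223 called list members these settings kept 196 to 222, and 0 reversed. Without genes in patches, added after the data were seen, 1127 were higher and 1735 lower. No paired analysis was possible because each group has the replicate number 1 alone; the pairing by genotype is part of the fit, and without the JAK2 genotype term 1041 genes were higher and 1470 lower. The difference between the pairs needs all 4 arrays, so no array could be left out of it. Signal over background limits the genes below background in a cell type to bounds or to dim signals kept as measured.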
